A study of Homo sapiens with 8 samples.

Results

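The genes described here are the expressed LINC genes of D283 MED cells, the long intergenic noncoding RNA genes that carry a LINC number in place of a functional name. They were taken as the genes whose GENCODE symbol is LINC followed by digits alone and whose counts exceeded 1 CPM (counts per 1000000 counts of the library) in at least 4 of the 8 libraries, with 1 gene (LINC01605) left out of the list. Of 1878 LINC genes in the files, 148 passed, which is 7.88%, whereas 25.1% of all 60668 genes did so. No count at all was found for 862 LINC genes in any library. The genes were thus chosen by their CPM in these same libraries, and being expressed is not a result. A gene may pass through a single group in which it is high, and such a gene had to differ between the groups. This was the case for 34 of the 148 genes, 12 through OMO and 22 through OMO+DOX, whereas 114 exceeded 1 CPM in at least 1 library of each group, and 97 in every library.

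D283 MED is a medulloblastoma cell line with high MYC expression. D283-OMO cells are D283 MED cells transduced with a lentivirus carrying a Flag-tagged OMOMYC transgene, which is switched on by doxycycline (DOX), and selected with hygromycin B. OMOMYC is a dominant-negative MYC mini-protein. The OMO group held 4 replicates of untreated D283-OMO cells and the OMO+DOX group 4 replicates of the same cells treated with DOX for 72 h, so that both groups carry the transgene and differ in DOX and in OMOMYC together. Libraries of DOX-treated cells without the transgene were not analysed here, and in these data an effect of DOX itself cannot be told apart from that of OMOMYC. The study did assay selected transcripts by qRT-PCR, also in DOX-treated cells without the transgene. Not all of them followed their RNA-Seq trend, and of those that did, most but not all were reported as unaffected by DOX. The methods describe a selected population of transduced cells and name the replicates as independent biological replicates. PolyA+ RNA was sequenced from a stranded kit, and the question of the study was which long noncoding RNAs depend on MYC.

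Long intergenic noncoding RNAs are transcribed by RNA polymerase II, capped, spliced and mostly polyadenylated like mRNAs, but they have no long open reading frame and are in general low and restricted to few cell types. Some act on the gene next to them, some serve as precursors of microRNAs, and for most no function is known. MYC binds DNA as a dimer with MAX at E-boxes, the best known of which reads CACGTG, and OMOMYC can occupy the same sites without activating transcription.

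Sequences are shown first for the promoters, since the E-box is the element through which MYC and OMOMYC meet DNA. They are windows of 300 bases, 250 before and 50 after the RefSeq start of the gene, on GRCh38.p14 and in the 5′ to 3′ direction of the gene. CACGTG, which reads the same on both strands, is in capitals. LINC00499, the member that fell most, had no CACGTG in its window (chr4:138309461-138309760, plus strand), and its RefSeq start is the GENCODE start. LINC01315 (chr22:42369159-42369458, minus strand) and LINC02381 (chr12:54125821-54126120, plus strand) both fell and held 1 CACGTG each, 40 bases after and 55 bases before the start. LINC00863 (chr10:87342486-87342785, plus strand) and LINC01508 (chr9:90433440-90433739, minus strand) both rose and held 1 each too, 87 bases before and 32 bases after the start. These rises were small, with a log2FC of 0.26 for LINC00863 and 0.39 for LINC01508. The falls were larger, at −2.15 for LINC01315 and −0.93 for LINC02381.
LINC00499: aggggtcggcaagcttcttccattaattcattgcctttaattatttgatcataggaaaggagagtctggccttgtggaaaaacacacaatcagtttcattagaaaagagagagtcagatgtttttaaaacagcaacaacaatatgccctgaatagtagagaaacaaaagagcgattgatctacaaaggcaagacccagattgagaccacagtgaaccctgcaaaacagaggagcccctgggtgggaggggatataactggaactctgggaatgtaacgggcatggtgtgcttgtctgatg
LINC01315: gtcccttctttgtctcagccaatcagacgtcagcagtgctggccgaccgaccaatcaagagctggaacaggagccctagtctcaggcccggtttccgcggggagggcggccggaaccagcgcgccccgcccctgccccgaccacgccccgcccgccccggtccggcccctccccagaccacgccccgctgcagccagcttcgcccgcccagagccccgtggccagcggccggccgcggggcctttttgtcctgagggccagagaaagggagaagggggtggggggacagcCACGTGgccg
LINC02381: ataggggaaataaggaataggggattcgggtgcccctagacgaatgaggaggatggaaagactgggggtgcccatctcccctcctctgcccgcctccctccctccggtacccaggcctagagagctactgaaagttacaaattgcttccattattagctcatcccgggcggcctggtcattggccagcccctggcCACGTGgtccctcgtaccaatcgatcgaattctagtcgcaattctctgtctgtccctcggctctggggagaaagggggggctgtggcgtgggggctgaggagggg
LINC00863: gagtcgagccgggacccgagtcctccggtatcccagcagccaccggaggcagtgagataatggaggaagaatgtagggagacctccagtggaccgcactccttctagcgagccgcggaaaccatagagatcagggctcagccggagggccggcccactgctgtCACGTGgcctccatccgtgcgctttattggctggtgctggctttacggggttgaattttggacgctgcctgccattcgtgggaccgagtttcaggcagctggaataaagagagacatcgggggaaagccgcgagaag
LINC01508: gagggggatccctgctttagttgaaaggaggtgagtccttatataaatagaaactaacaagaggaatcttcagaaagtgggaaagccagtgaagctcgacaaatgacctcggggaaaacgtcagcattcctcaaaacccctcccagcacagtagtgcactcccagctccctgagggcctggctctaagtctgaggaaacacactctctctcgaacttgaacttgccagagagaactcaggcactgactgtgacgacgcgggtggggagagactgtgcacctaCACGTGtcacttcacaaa

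By current symbol and position, 99 of the 148 LINC genes had a promoter window in the RefSeq table and 49 had none. At least 1 CACGTG was found in 14 of these 99 genes (14.1%), against 8.77% of the 27305 genes in the table. Counted by window, the shares were 13.0% of 115 and 7.26% of 35116. Of the members with a window, 7 of 37 that fell with DOX held the motif (18.9%), as did 3 of 34 that rose (8.82%) and 4 of 28 that were not called (14.3%). Genes in both directions thus held it. The wider pattern CANNTG, of which CACGTG is one form, was present in 73.0% of the members' windows and in 68.7% of all windows. These matches describe letters in a window, and binding was not measured in these libraries.

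Of the hairpins in the RefSeq microRNA table used here, some lay within the bounds of 2 of the 148 genes, on the same strand. LINC00461 contains MIR9-2 (chr5:88666853-88666939, minus strand), and LINC00472 contains MIR30C2 (chr6:71376960-71377031) and MIR30A (chr6:71403551-71403621), both on the minus strand. The mature RNAs are given because both of these genes rose, with the seed (bases 2 to 8) in capitals. LINC00599, the miR-124 host gene described below, held no hairpin of that table and fell (log2FC −0.95). The 2 genes are thus not all the microRNA hosts among the members, and hosts went in both directions. The members of the miR-30 family share the seed GUAAACA, whereas the arms of miR-9 have a seed each.
hsa-miR-9-5p: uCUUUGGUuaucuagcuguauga
hsa-miR-9-3p: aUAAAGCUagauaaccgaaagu
hsa-miR-30a-5p: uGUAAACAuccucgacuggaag
hsa-miR-30c-5p: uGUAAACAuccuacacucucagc

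PolyA+ libraries measure the host transcript, and the level of the mature microRNAs was not analysed here.

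The libraries held 46592947 to 54020506 counts in the OMO group and 38390696 to 49249167 in the OMO+DOX group. Expected counts from RSEM were rounded, scaled by the TMM method of edgeR and compared by its quasi-likelihood test, and all adjusted p-values below were corrected by Benjamini-Hochberg over the 15221 genes tested. MYC RNA stood at 937 ± 75.4 CPM (SD, n = 4) in OMO and at 1120 ± 56.7 CPM in OMO+DOX, although reads of the transgene and of MYC may not be separable. Of 12 MYC target genes, 10 fell and 2 (ODC1 and NOP56) rose, with a median log2FC of −0.58. Of the listed medulloblastoma and photoreceptor markers, OTX2, CRX, NRL, IMPG2, NPR3 and GABRA5 were present in OMO and fell with DOX. MYC, on the same list, was higher (log2FC 0.26, adjusted p = 0.00235), with overlapping replicates. The granule neuron markers NEUROD1 (94.2 and 20.1 CPM in the OMO and OMO+DOX means) and GABRA6 (2.73 and 0.414 CPM) fell too. Of the 8 markers of astrocytes, leukocytes, endothelium and fibroblasts, COL1A1 stood at 22.1 and 23.4 CPM in the OMO and OMO+DOX means and CDH5 at 0 and 1.85 CPM, while the others stayed below 1 CPM. Their sum ranged from 22.9 to 23.8 CPM in OMO and from 22.8 to 27.2 CPM in OMO+DOX, and its part in the results was not tested. In bulk RNA, fewer cells with a transcript and less of it per cell cannot be told apart.

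Together, the 148 members made up 0.124 to 0.133% of the counts in OMO and 0.124 to 0.131% in OMO+DOX. Their median level was 2.76 CPM against 23.0 CPM over all genes tested. The median SE of their log2FC was larger as well, 0.124 against 0.0718, and genes of matched level were not compared. Reads were concentrated in few genes. The 10 most abundant members held 50.9% of the members' CPM in OMO and 47.4% in OMO+DOX.

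In the GENCODE 29 annotation, 111 members were typed as lincRNA, 15 as processed transcript, 7 as antisense and 3 as bidirectional promoter lncRNA. A further 6 were transcribed unprocessed pseudogenes, 3 transcribed unitary pseudogenes, 2 protein-coding and 1 sense overlapping. A LINC number is therefore not always an intergenic RNA. In addition, 16 of the 148 genes bear a different name today, among them LINC01578 (now CHASERR), LINC00599 (MIR124-1HG) and LINC00535 (CIBAR1-DT). Their exonic length had a median of 3040.5 bases and ranged from 289 to 28876. Chromosome 1 carried 19 of them and chromosome 14 carried 13.

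Between the groups, the LINC genes differed in both directions. At an adjusted p below 0.05, 57 members rose and 57 fell, 114 of 148 or 77.0%. Over all genes tested 76.6% passed, 38.6% higher and 38.1% lower, so that the share of members called was that of expressed genes in general. With the thresholds of the study's methods (FDR below 0.001 and an absolute log2FC above 2), 15 members rose and 15 fell, 20.3% of the list, against 7.12% of all genes tested (4.38% higher and 2.75% lower). At an FDR below 0.01, which the study's text also uses, these counts of members were the same, and 7.13% of all genes tested passed. This excess goes with the genes that passed through 1 group only, which made up 23.0% of the members and 5.66% of all genes tested. Among the 114 members above 1 CPM in both groups, 2 rose and 4 fell past those thresholds, 5.26% against 3.91% of the 14360 genes of this kind, and 80 passed an adjusted p of 0.05 (70.2% against 75.3%). The values of the groups did not overlap for 106 members (71.6%), against 71.7% over all genes tested. For members above 1 CPM in both groups, 72 did not overlap (63.2%), compared with 70.1%.

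The median log2FC of the members was −0.04, with quartiles of −0.57 and 0.71, and that of all genes tested was 0.01. The median of the absolute log2FC was 0.67 in members and 0.43 over all genes. Among those above 1 CPM in both groups it was 0.43, near the 0.40 of all such genes. In the order of log2FC, 64 members lay between −0.5 and 0.5, and the ends were filled mostly by genes above 1 CPM in a single group. Most of these still had counts in the other group.

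**Figure D1:**
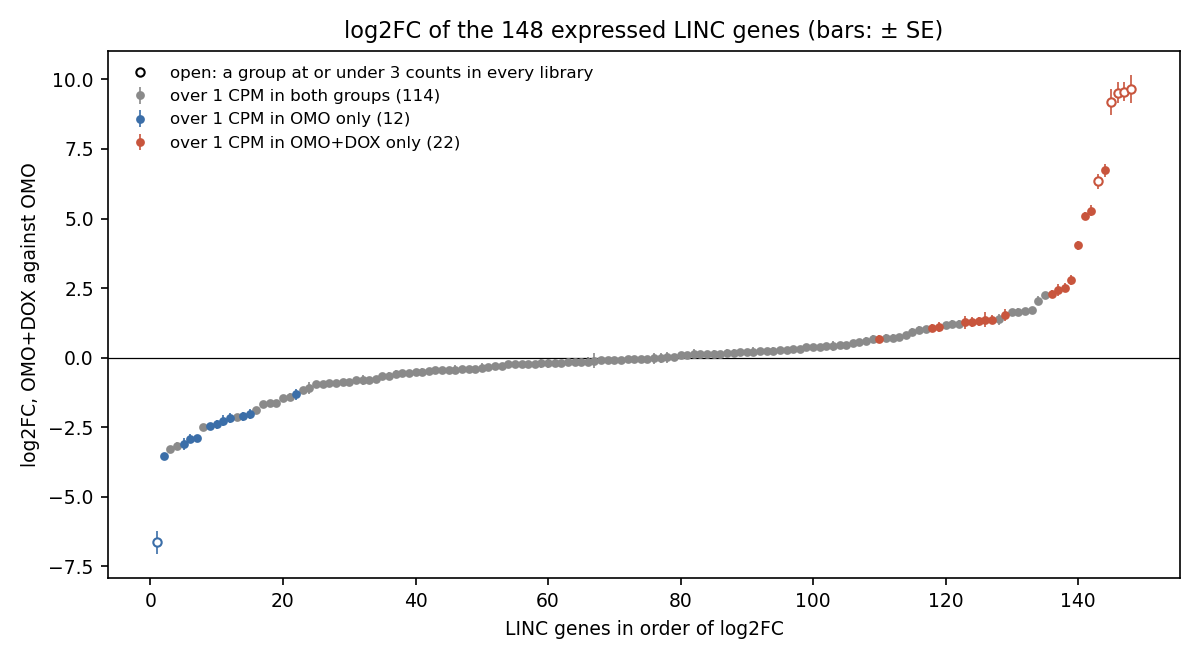
The log2FC of each of the 148 LINC genes (y axis, OMO+DOX against OMO, bars ± SE) in ascending order (x axis), grey for the 114 above 1 CPM in both groups, blue for the 12 that passed in OMO only and red for the 22 in OMO+DOX only. Open circles mark genes with at most 3 counts in each library of 1 group, whose fitted value depends on the prior count of the model, and the largest values at both ends are of this kind.

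Among the 10 largest falls, LINC02754 had the most reads. LINC02754 (ENSG00000251637.6, chr11:67886477-67906350, plus strand) gave 37.2, 44.9, 44.5 and 38.9 CPM in OMO and 4.62, 3.73, 3.92 and 4.52 CPM in OMO+DOX. The groups lay far apart, and its log2FC was −3.30 (SE 0.0906, adjusted p = 3.37e-11), a 9.82-fold fall. RSEM gave it fractional counts in 4 libraries, so that a part of its reads was shared with another gene. LINC00595 (ENSG00000230417.12, chr10:78179185-78551355, plus strand) gave 7.61, 8.32, 8.64 and 8.58 CPM without DOX and 0.629, 0.621, 0.761 and 0.835 CPM with it. All treated replicates were below 1 CPM and its log2FC was −3.53 (SE 0.112, adjusted p = 1.07e-10).

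LINC00499 had the lowest log2FC of the list. LINC00499 (ENSG00000251372.6, chr4:138309711-138424344, plus strand), whose promoter is printed above, gave 3.60, 4.65, 2.62 and 2.88 CPM in OMO and 0.0590, 0, 0.0585 and 0 CPM in OMO+DOX. In counts this was 676 against 6, an OMO level 109 times that with DOX (exact 95% interval 49.6 to 297, counting error only), with an adjusted p of 3.64e-08. Neither group came near the other, although the untreated replicates varied among themselves by a CV of 26.5%.

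LINC02600 (ENSG00000250986.1, chr4:3758748-3763390, minus strand) fell from 7.90, 6.72, 7.83 and 7.53 CPM to 0.865, 1.04, 0.780 and 0.637 CPM. Its log2FC was −3.18 (SE 0.131, adjusted p = 9.80e-10). LINC00896 (ENSG00000236499.2, chr22:20206397-20208524, plus strand), a single exon in this annotation, fell from 5.13, 5.23, 6.23 and 4.63 CPM to 0.747, 0.646, 0.663 and 0.769 CPM. Each treated replicate was thus several times lower than any untreated one, and its log2FC was −2.90 (SE 0.129, adjusted p = 1.92e-09).

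The other falls among the 10 largest are given by their means. LINC02301 went from 2.08 ± 0.272 to 0.233 ± 0.104 CPM and LINC01467 from 3.32 ± 0.430 to 0.432 ± 0.0775 CPM (n = 4 each, as in all groups here), both on chromosome 14. LINC01563 went from 5.19 ± 0.141 to 0.904 ± 0.145 CPM, with a log2FC of −2.51 (SE 0.115). LINC02798 stood at 3.81 ± 0.346 and 0.685 ± 0.111 CPM, and LINC00907 at 3.07 ± 0.408 and 0.572 ± 0.108 CPM. The 10 were taken from the members without overlap between the groups, so their separation is fixed by that choice. Of these 10, LINC02754, LINC02600 and LINC01563 exceeded 1 CPM in both groups, and the other 7 in OMO only.

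The rises were led by RNAs with no count in any of the 4 untreated libraries. LINC02244 (ENSG00000259590.1, chr15:99395179-99396593, minus strand) had 80, 93, 106 and 116 counts in the OMO+DOX libraries, LINC01671 (ENSG00000225431.1, chr21:42599280-42615058, minus strand) had 102, 74, 103 and 92, LINC00437 (ENSG00000236354.1, chr13:38533343-38545299, minus strand) had 86, 82, 105 and 87, and LINC01250 (ENSG00000234423.2, chr2:2895048-3126026, minus strand) had 84, 60, 90 and 54. Against a floor of 3 counts in the shallowest untreated library, 0.0671 CPM, these means of 2.13 ± 0.417, 1.97 ± 0.0864, 1.92 ± 0.166 and 1.52 ± 0.249 CPM were at least 31.7-fold, 29.4-fold, 28.7-fold and 22.7-fold higher. Their adjusted p lay between 2.33e-08 and 2.55e-07, but they were chosen among genes that passed the test, so this adds no support. All of the 10 largest rises exceeded 1 CPM in OMO+DOX only, and their separation is fixed by the filter and the choice. These 4 genes were not detectable without DOX at this depth and present in each treated library.

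Among the 10 largest rises, LINC01151 had the most reads with DOX. LINC01151 (ENSG00000253819.2, chromosome 8) gave 0.0611, 0.174, 0.0811 and 0.179 CPM in OMO and 15.5, 14.8, 13.2 and 10.01 CPM in OMO+DOX, with a log2FC of 6.74 (SE 0.242, adjusted p = 3.10e-10). The untreated values rest on 3 to 9 counts a library. LINC01208 had 2, 1, 2 and 0 counts in OMO, 5 in sum, against 430 in OMO+DOX, a level 89.3 times higher (exact 95% interval 37.95 to 276, counting error only).

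Other RNAs had few counts without DOX. LINC00535, which is typed as antisense and shares exon bases with the gene FAM92A, gave 4, 4, 4 and 1 counts in OMO (0.0655 ± 0.0288 CPM, about the floor of 3 counts) and 2.68 ± 0.137 CPM in OMO+DOX. In counts this was 13 against 506, a level 40.4 times higher with DOX (exact 95% interval 23.4 to 76.4, counting error only). LINC00242 (ENSG00000229214.2, chr6:169788790-169799549, minus strand) rose from 0.0919 ± 0.0164 to 3.24 ± 0.0291 CPM, a log2FC of 5.10 (SE 0.153). LINC00937 (ENSG00000226091.7, chr12:8295986-8396803, minus strand) gave 0.468, 0.541, 0.284 and 0.715 CPM in OMO and 8.48, 7.95, 8.68 and 7.75 CPM in OMO+DOX. Its treated values lay close together and far above the untreated ones, with a log2FC of 4.04 (SE 0.171, adjusted p = 1.23e-09), but its counts were fractional in all 8 libraries.

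LINC00461, a brain RNA that contains MIR9-2 and lies next to MEF2C, closed the 10 largest rises. LINC00461 (ENSG00000245526.11, chr5:88507546-88691041, minus strand) gave 0.916, 0.695, 0.446 and 0.537 CPM in OMO and 4.60, 4.82, 4.00 and 4.70 CPM in OMO+DOX, with a log2FC of 2.79 (SE 0.174, adjusted p = 3.59e-08). LINC00472, the gene around MIR30A and MIR30C2, rose alike from 0.977, 0.811, 0.669 and 0.715 CPM to 4.15, 4.15, 3.63 and 3.60 CPM (log2FC 2.28, SE 0.132, adjusted p = 1.89e-08). In both genes the lowest treated replicate exceeded the highest untreated one. Both passed 1 CPM in OMO+DOX only, so this separation follows from the filter and is no added support. LINC00472 was chosen for its hairpins after its values were seen.

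**Figure D2:**
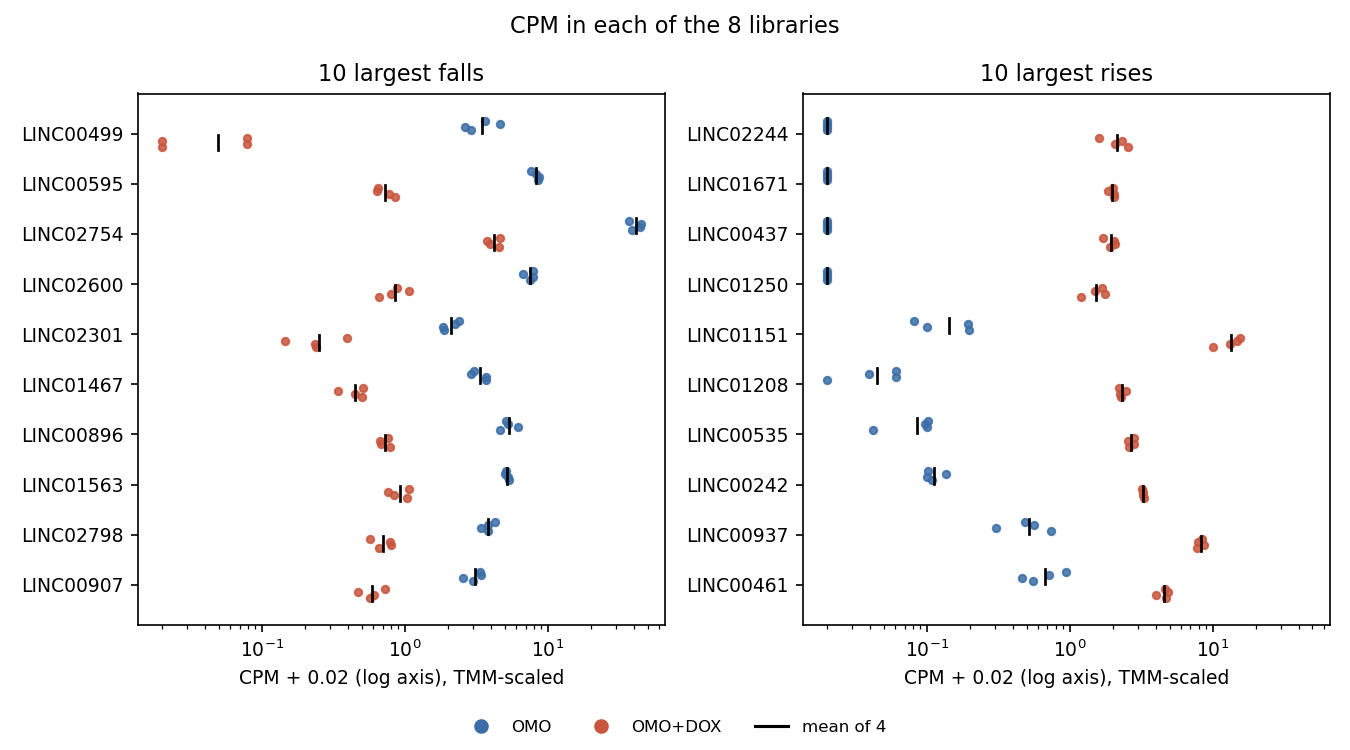
CPM of the 10 LINC genes with the largest falls (left) and the largest rises (right) in each library, with 0.02 CPM added so that zeros appear on the log axis, blue for the 4 OMO and red for the 4 OMO+DOX libraries and black bars for group means. The genes were chosen from those without overlap between the groups, and LINC02244, LINC01671, LINC00437 and LINC01250 sit at 0 CPM in all 4 OMO libraries.

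A gene low in 1 group can be driven by the threshold. The members that exceeded 1 CPM in at least 1 library of each group and passed the stricter thresholds are therefore given too. Besides LINC02754, LINC02600 and LINC01563 these were LINC01315, LINC01376 and LINC02351, which lie outside the naming rule and were chosen after their values were seen. LINC02600, LINC01563 and LINC01315 still averaged below 1 CPM in OMO+DOX (0.832, 0.904 and 0.895 CPM), so the threshold bears on them as well. LINC01315, whose promoter holds a CACGTG, fell from 3.52, 3.86, 4.28 and 4.34 CPM to 1.02, 0.771, 0.995 and 0.791 CPM (log2FC −2.15, SE 0.130, adjusted p = 2.78e-08). LINC01376 rose from 1.20, 0.965, 0.973 and 1.77 CPM to 5.13, 4.82, 4.88 and 5.23 CPM (log2FC 2.04, SE 0.162, adjusted p = 3.20e-07). The shortest of the 148 genes, LINC02351 with 289 exonic bases, rose from 2.40, 2.80, 2.45 and 2.41 CPM to 12.3, 12.01, 11.8 and 11.6 CPM (log2FC 2.24, SE 0.0753, adjusted p = 1.78e-10). The groups were separate in each of these, although LINC01376 varied by a CV of 30.7% among the untreated replicates.

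Of the 10 members with the highest mean CPM, 5 fell, 3 rose and 2 were not called, with absolute log2FC of at most 0.93. Over all genes tested 76.6% were called, 38.6% higher and 38.1% lower, so calls among these 10 are not particular to them. LINC01578 (ENSG00000272888.7, chr15:92882707-92899701, plus strand) is CHASERR, an RNA known to restrain the chromatin remodeller gene CHD2 beside it. It gave 122, 121, 128 and 118 CPM in OMO and 69.4, 73.3, 68.8 and 70.1 CPM in OMO+DOX, a log2FC of −0.80 (SE 0.0440, adjusted p = 1.25e-08). LINC00662 (ENSG00000261824.7, chr19:27684580-27793940, minus strand) gave 125, 119, 119 and 122 CPM against 64.5, 78.7, 65.3 and 68.0 CPM, a log2FC of −0.81 (SE 0.0627, adjusted p = 2.43e-07). No treated replicate of either RNA came near an untreated one.

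LINC00665 (ENSG00000232677.8, chromosome 19) fell from 60.1, 61.7, 61.5 and 62.8 CPM to 39.2, 38.6, 38.9 and 37.8 CPM. Its replicates spread by a CV of 1.81% and 1.56%, and the log2FC was −0.67 (SE 0.0396, adjusted p = 2.21e-08). LINC02381 (chromosome 12), whose promoter is printed above, fell from 37.95 ± 3.12 to 19.9 ± 1.49 CPM, a log2FC of −0.93 (SE 0.0709, adjusted p = 2.22e-07). LINC00342 gave 54.9, 47.3, 36.8 and 48.9 CPM without and 37.9, 36.8, 31.6 and 30.4 CPM with DOX. It passed the test (log2FC −0.46, SE 0.113, adjusted p = 0.00288), but here the groups overlapped, since OMO replicate 3 lay within the treated range.

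In the other direction, LINC00667 (ENSG00000263753.8, chr18:5237826-5246508, plus strand) rose from 60.2, 59.5, 57.0 and 61.2 CPM to 79.1, 80.1, 78.3 and 76.3 CPM (log2FC 0.40, SE 0.0418, adjusted p = 3.60e-06). LINC00641 (ENSG00000258441.1, chr14:21200079-21206900, minus strand) rose from 56.0, 52.8, 45.3 and 55.2 CPM to 78.3, 77.1, 73.3 and 69.1 CPM (log2FC 0.51, SE 0.0697, adjusted p = 3.52e-05). Both rises were modest and free of overlap. LINC00963 stood at 54.3 ± 2.37 and 59.8 ± 1.73 CPM (log2FC 0.14, adjusted p = 0.0167), but without OMO replicate 2 or 4 it no longer passed (adjusted p = 0.0641 and 0.0708). Of the 10 genes, all but LINC00641 had fractional counts in all 8 libraries, so that reads they share with other genes were divided by RSEM.

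**Figure D3:**
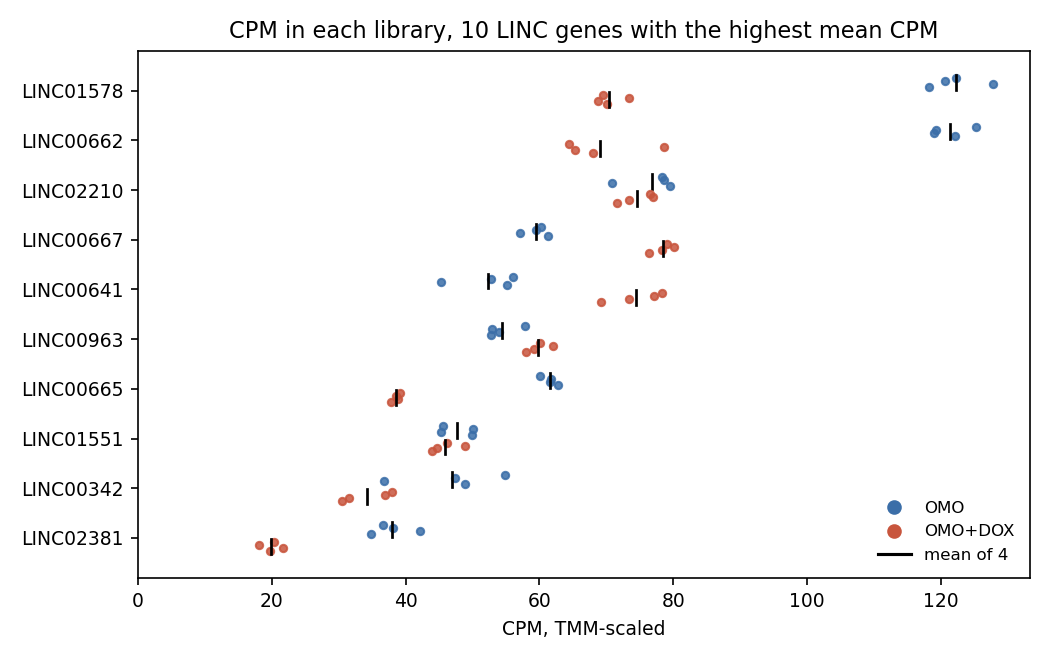
CPM (x axis, linear) of the 10 LINC genes with the highest mean CPM in each of the 8 libraries, blue for OMO, red for OMO+DOX and black bars for group means. LINC01578, LINC00662, LINC00665 and LINC02381 are lower in all 4 treated libraries, LINC00667 and LINC00641 are higher, and LINC02210 and LINC01551 overlap.

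CPM depend on gene length, so levels between genes were compared as CPM per kilobase of exon. On this scale 7 of the 10 genes stayed among the 10 highest. LINC01578 stood at 22.7 and 13.1 CPM per kb in OMO and OMO+DOX, LINC01551 at 17.2 and 16.6, LINC00342 at 17.9 and 13.1 and LINC00662 at 15.2 and 8.68. The short LINC02351 led the list with DOX, at 41.3 CPM per kb after 8.71 without. LINC02210, a long transcript, stood at 4.93 and 4.79 CPM per kb. The medians over all members were 1.34 CPM per kb in OMO and 1.07 in OMO+DOX, which puts these genes well above the class. Lengths are of GENCODE 29, not of the release used for counting.

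Of the abundant members without a call, LINC02210 gave 78.3, 78.5, 70.8 and 79.5 CPM in OMO and 76.5, 77.0, 73.4 and 71.6 CPM in OMO+DOX (adjusted p = 0.460). LINC01551 gave 45.6, 50.1, 45.2 and 49.9 CPM against 46.1, 48.8, 44.7 and 43.9 CPM (adjusted p = 0.352). LINC01089 stood at 15.8 ± 1.18 and 15.0 ± 0.932 CPM (adjusted p = 0.309). The log2FC of these genes was −0.04, −0.06 and −0.08 and turned positive when libraries were scaled by their total alone, so no direction is given for them. LINC00205 (27.5 ± 2.48 and 29.9 ± 0.836 CPM, adjusted p = 0.103) and LINC00689 (14.6 ± 1.74 and 16.6 ± 0.934 CPM, adjusted p = 0.0597) were higher in the mean of OMO+DOX, with overlapping replicates. Without OMO replicate 1 both passed, at adjusted p of 0.0490 and 0.0128. A p that misses the threshold does not show that a level is the same in both groups.

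Of the LINC genes listed for a known role or neighbourhood, LINC01158 and LINC00511 were not among the members. LINC00599, the host gene of a miR-124 hairpin that is abundant in neurons, gave 12.5, 9.86, 11.2 and 11.3 CPM in OMO and 5.98, 5.39, 6.01 and 5.80 CPM in OMO+DOX. It fell by 0.95 on the log2 scale (SE 0.0820, adjusted p = 6.59e-07). LINC00632, the long primary transcript from which the circular RNA CDR1-AS derives, gave 2.18, 1.91, 1.48 and 2.66 CPM in OMO and 4.23, 4.35, 3.45 and 3.51 CPM in OMO+DOX. It rose by a log2FC of 0.92 (SE 0.161, adjusted p = 0.000266), and counts per gene do not separate the linear from the circular RNA. LINC00467 fell from 9.95 ± 0.722 to 7.55 ± 0.324 CPM (log2FC −0.40, SE 0.0715, adjusted p = 0.000307). Each of these 3 was free of overlap between the groups.

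At the threshold itself, the members with the lowest 4th highest CPM of library total were LINC02302 at 1.003, LINC01305 at 1.02 and LINC00643 at 1.05. All passed through OMO+DOX alone, with 1.31 ± 0.383, 1.15 ± 0.182 and 1.23 ± 0.202 CPM against 0.516 ± 0.176, 0.395 ± 0.107 and 0.516 ± 0.178 CPM in OMO. Just outside stood LINC02457 at 0.9996, LINC01612 at 0.990 and LINC02352 at 0.951. LINC02457 had 1.27 ± 0.214 CPM in OMO and 0.159 ± 0.0369 CPM in OMO+DOX, so that a marked difference lies outside the list as well.

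Since some RNAs of this class act on the adjoining gene, each member was set beside the nearest protein-coding gene. Such a gene lay within 100 kb for 124 members, and for 95 of them it was among the genes tested. The log2FC of member and neighbour had the same sign in 68 of the 95 pairs (71.6%). These pairs include members that passed through a single group, whose direction was fixed by the filter. The share was not computed apart for members above 1 CPM in both groups. For comparison, the share was 57.2% in 9418 pairs of a protein-coding gene with its nearest protein-coding gene and 67.4% in 1155 pairs of other long noncoding genes. Where both passed an adjusted p of 0.05, 40 of 49 pairs had the same sign (81.6%), compared with 61.5% and 76.6% in those sets. Across the 95 pairs, which share all 8 libraries and involve 93 neighbours, Spearman's rho was 0.61, given as a description. The LINC genes thus resembled other long noncoding genes in this respect, and the difference between the sets was not tested. Exons overlapped in 17 of the pairs, and without them 56 of 78 had the same sign (71.8%). Since the strand setting of the counting is not given in the sources used here, reads of overlapping genes may not be separable.

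Several neighbours moved with the RNA. MEF2C, a transcription factor of neurons and muscle that lies 26076 bases from LINC00461, rose from 1.95 ± 0.365 to 11.3 ± 0.524 CPM, a log2FC of 2.54 (SE 0.117) beside the 2.79 of the RNA. SLC37A1, a sugar-phosphate transporter 17840 bases from LINC01671, rose from 0.00965 ± 0.0193 to 10.7 ± 0.914 CPM, so that both genes of this locus were seen almost only with DOX. ZHX2, a transcription factor 87288 bases from LINC01151, rose from 5.39 ± 0.379 to 33.6 ± 1.23 CPM (log2FC 2.64, SE 0.0611). LRRC28, 4450 bases from LINC02244, rose from 9.50 ± 0.475 to 32.9 ± 1.05 CPM (log2FC 1.79, SE 0.0529). FAM92A, which overlaps LINC00535, rose from 29.6 ± 2.24 to 134 ± 4.53 CPM (log2FC 2.17, SE 0.0591). Among the genes at the threshold, LINC01305 and its neighbour SP9 both rose (log2FC 1.53 and 1.07), as did LINC00643 and SYT16 (log2FC 1.26 and 1.27). Each LINC gene in this paragraph passed 1 CPM in OMO+DOX only. Its own rise was therefore fixed by the filter and adds no support to the pair.

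Others fell with it. ADRA2C, an adrenergic receptor 2958 bases from LINC02600, fell from 19.5 ± 1.34 to 5.04 ± 0.642 CPM (log2FC −1.95, SE 0.0903). SLC7A11, the cystine-glutamate exchanger 67362 bases from LINC00499, fell from 97.9 ± 14.1 to 45.5 ± 9.89 CPM (log2FC −1.11, SE 0.142). RTN4R, a receptor of axon growth inhibitors 32891 bases from LINC00896, fell from 4.68 ± 0.358 to 2.31 ± 0.565 CPM (log2FC −1.02, SE 0.147). ZFP14, beside LINC00665, also fell (log2FC −0.44, SE 0.0785), as did USP22 beside LINC01563 and SMUG1 beside LINC02381, though by no more than 0.19 on the log2 scale. In these last pairs the RNA moved much more than the gene. LINC00499 and LINC00896 passed 1 CPM in OMO only, so the falls of these RNAs were fixed by the filter.

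Some pairs did not move together. EIPR1, 62899 bases from LINC01250, stood at 22.0 ± 1.96 and 20.9 ± 1.21 CPM (adjusted p = 0.381), while the RNA went from no counts to 1.52 CPM. SEL1L beside LINC01467 (log2FC 0.04, adjusted p = 0.770) and SRGAP2C beside LINC02798 (log2FC −0.08, adjusted p = 0.242) were not called either. UNC93B1, 84754 bases from LINC02754, rose slightly (log2FC 0.26, SE 0.0902, adjusted p = 0.0195) while the RNA fell. HNRNPC, an mRNA-binding protein gene 2236 bases from LINC00641, fell by 0.24 on the log2 scale (SE 0.0416) while the RNA rose. POFUT2 rose by a log2FC of 1.12 (SE 0.0534) next to LINC00205, whose start lies 152 bases away in the opposite direction and which was not called.

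**Figure D4:**
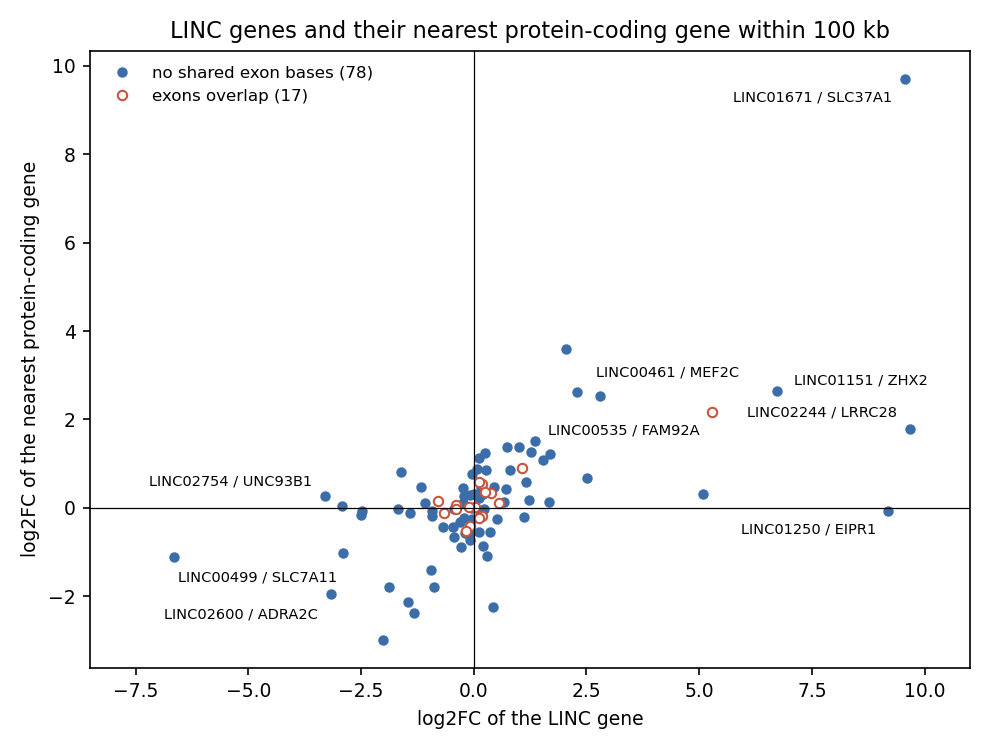
The log2FC of each LINC gene (x axis) against that of its nearest protein-coding gene within 100 kb (y axis) for 95 pairs, filled blue for 78 pairs with no shared exon bases and open red for 17 pairs whose exons overlap. Most points lie in the lower left and upper right of the plot (68 of 95 have the same sign), with LINC01671 and SLC37A1 at the far upper right and LINC01250 and EIPR1 near the zero line.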

How the data were processed

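RNA-Seq of polyA+ RNA from 4 OMO and 4 OMO+DOX replicates was analysed. Upstream steps by the authors were trimming (Trim Galore), STAR alignment on GRCh38 with the GENCODE 32 annotation and quantification by RSEM. The deposited values are expected counts per gene, not normalized, in which reads that match several genes are already divided. A total of 69 of the 148 members had a fractional count in at least 1 library.

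Expected counts were rounded. Genes above 1 CPM in at least 4 of 8 libraries were fitted in edgeR 4.0.16 (R 4.3.3) with TMM scaling and without covariates. Its quasi-likelihood test gave p-values, adjusted by Benjamini-Hochberg over 15221 genes, and the SE of a log2FC was taken as |log2FC| divided by the root of F. The fit was tested on simulated data. A group at 0 was set at a floor of 3 counts in its shallowest library. Floors and intervals cover counting error only.

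Symbols came from the study's gene lists where listed and from GENCODE 29 otherwise, which also gave coordinates, types and neighbours on GRCh38. The symbol used was that of GENCODE 29 for 140 members and differed from it for 8. Promoters and microRNAs are RefSeq sequences on GRCh38.p14. The members and lists were chosen with earlier results of these data known. Named genes are the 10 largest rises and falls without overlap, the 10 with the highest mean CPM, the LINC genes of the study's lists, the 5 most abundant without a call, 8 with a known role or locus, 3 on each side of the threshold and their neighbours. Any others were chosen after their values were seen. The result for 1 neighbour is not reported here.

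Same-numbered libraries did not deviate together throughout (correlations of −0.27 to 0.34, mean 0.12). No OMO library correlated best with its own number, so the replicate number was not used as a block. Alternatives were other scalings, DESeq2 1.42.0, the likelihood ratio test, other filters, the block, other symbol sets and each library left out in turn. Other steps used Python 3.11.15, pandas 2.3.3, numpy 2.4.6 and scipy 1.17.1. Transcript-level abundance was not analysed here.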

Additional observations from a re-analysis of the deposited data

Results flagged for a closer look

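Among 84 groups of 4 replicates of named genes, 3 had 1 replicate far from the others by Dixon's test at the 95% level, against 4.2 that chance gives at 1 in 20. LINC02210 in OMO replicate 3 stood at 70.8 CPM, with the other replicates at 78.3 to 79.5 CPM. LINC00535 in OMO replicate 4 stood at 0.0224 CPM, a single count, with the others at 0.0772 to 0.0814 CPM. LINC01671 in OMO+DOX replicate 2 stood at 1.84 CPM, with the others at 2.01 to 2.02 CPM.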

How the results depend on the processing

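Of 639 recomputed log2FC of 39 named members, 627 kept their direction and their side of the threshold, 3 fell short of it, 6 passed it newly and 3 turned. Those that turned were LINC01089 (0.048), LINC01551 (0.069) and LINC02210 (0.083), none of them called, under scaling by library size only, which moved the median of all genes from 0.01 to 0.14 and the share of rises among all calls from 50.3% to 60.2% (members 50% to 56.6%). The median log2FC of the members was 0.087 under this scaling, −0.066 without a filter on low counts, −0.073 with a mean above 1 CPM, −0.068 when at least 5 libraries had to exceed 1 CPM, −0.19 for the 79 members with whole counts throughout and −0.081 for the 114 above 1 CPM in both groups, the last sets added after seeing the data. That 5-library filter left 114 members, of which 36 rose at an adjusted p below 0.05, and 2 rose and 4 fell past the stricter thresholds. The 114 above 1 CPM in both groups gave 35 rises, and 2 rises and 4 falls. Whole counts gave 32 rises and 36 falls. These counts come from fewer genes. With each library left out in turn, 53 to 60 members rose and 54 to 58 fell, 14 to 15 and 13 to 15 did so past the stricter thresholds, and the median ranged from −0.072 to −0.015. DESeq2 gave 56 rises and 56 falls.

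With the replicate block, 59 members rose and 57 fell, of which 113 were called without it too, and the median was −0.04. No OMO library correlated best with its own number in the OMO+DOX group (0 of 4), whereas OMO+DOX replicate 3 correlated best with OMO replicate 3, and the numbers were not taken as pairs. LINC00689 passed with the block (log2FC 0.19, adjusted p = 0.0230). Levels below about 0.0746 CPM, 3 counts in the shallowest library, could not be resolved.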
